A study of Homo sapiens with 12 samples.

Results

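The 39 genes described here code for hydrolases of the lysosome, the small proteins that help them and the proteins of the lysosomal membrane. They were taken by symbol from a count table of 21599 genes measured in RPE1 cells, with the counts of identifiers that share a symbol summed. All 39 were found and all 39 passed the filter on low counts, which left 13340 genes for testing. RPE1 is an immortalised line of human retinal pigment epithelial cells, labelled wild type throughout.

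RNA was sequenced from 12 libraries in 3 groups of 4. Control cells had DMSO, the solvent, only. A second group was kept for 72 h in 50 nM doxorubicin, a chemotherapy drug that poisons topoisomerase II and so breaks DNA. The third had the same dose and time of doxorubicin plus 5 µM ferrostatin-1, which traps lipid radicals and blocks ferroptosis and was renewed at 48 h. No library with ferrostatin-1 alone was analysed here, so its effect was seen only in cells exposed to doxorubicin.

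Lysosomes are acidic organelles in which sugars, sulfated glycans, lipids and proteins are taken apart by enzymes that work at low pH. Most of the enzymes are made in the endoplasmic reticulum and carried to the lysosome by a mannose 6-phosphate tag, and inherited loss of a single enzyme causes a storage disease. Cells that stop dividing after DNA damage often enlarge their lysosomes, and activity of the beta-galactosidase coded by GLB1 is a common stain for senescent cells.

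After doxorubicin most of the lysosomal genes rose. Of 39 members, 32 rose (82.1%), 4 fell (10.3%) and 3 did not pass the test, with a median log2 fold change of 0.66. Over all genes tested, 67.1% were called, 33.4% higher and 33.8% lower, and the median was -0.01. With library totals in place of TMM scaling, 3250 genes were higher and 5824 lower, in place of 4453 and 4503, and 30 members were higher and 5 lower. The summed share of the members in each library's counts was 0.827% ± 0.0247 (SD, n = 4) in control libraries, 1.12% ± 0.0140 with doxorubicin and 1.18% ± 0.0136 with both compounds, and the groups did not overlap. Adding ferrostatin-1 changed 6 members, 4 upward and 2 downward, where 2.36% of all genes tested rose and 3.28% fell (5.64% in all). With 1 library left out, 3 to 4 members were higher with ferrostatin-1 and 2 to 3 lower.

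Depth was similar across libraries. Total counts ran from 17523920 to 24879198 per library, and with no counts at all a level could still reach 0.124 to 0.172 CPM, for counting error only. CPM are counts relative to library size, scaled here by trimmed mean of M values (TMM), and levels are mean ± SD with n = 4. Genes with adjusted p under 0.05 are called. These p-values come from edgeR's quasi-likelihood test over all 13340 genes, two-sided, with a standard error (SE) derived from its F statistic. The treatment was visible in CDKN1A, a cell-cycle inhibitor gene, at 191 ± 10.0 CPM in control libraries and 1507 ± 56.5 with doxorubicin. Control replicate 1 stood apart from its group, with a chi-square statistic of 6.70 to 12.3 for each degree of freedom against the other controls. Those differed from each other by 2.39 to 3.73, doxorubicin libraries by 2.63 to 6.34 and libraries with both compounds by 5.15 to 7.75. The closest libraries of different groups, doxorubicin replicate 4 and replicate 2 of both compounds, differed by 8.50. Control replicate 1 differed from the treated libraries by 122 to 152. Without that library 31 members rose after doxorubicin and 3 fell, and the summed share of the control group was 0.839%. Of 9 markers of retinal pigment epithelium, RPE65 was not analysed here and RLBP1, TYR, TYRP1 and LRAT had at most 7 counts in any library, while MITF and OTX2, regulators of pigment cell and retinal pigment epithelium identity, were detected. BEST1 and PMEL were low, at 0.797 to 1.81 and 0.221 to 0.664 CPM over the 12 libraries. OTX2 fell from 17.7 ± 0.887 CPM in control libraries to 11.0 ± 0.688 with doxorubicin (log2 fold change -0.68 ± 0.076 SE, adjusted p = 1.65e-07) and was at 11.3 ± 0.575 with both compounds. MITF was at 45.4 ± 0.955 and 45.0 ± 0.943 CPM in control and doxorubicin libraries and rose to 51.8 ± 3.26 with ferrostatin-1 (0.20 ± 0.053, adjusted p = 0.0272 against doxorubicin). The 8 markers analysed summed to 64.8 to 66.1 CPM in control libraries, 57.5 to 58.6 with doxorubicin and 61.6 to 69.6 with both compounds. Of 7 markers of macrophages and other immune cells, which are rich in lysosomes, 3 were analysed. Their summed level was 3.18 to 4.29 CPM in control libraries, 0.959 to 2.53 with doxorubicin and 1.42 to 1.84 with both compounds. CSF1R was the highest of them in control libraries, at 3.43 ± 0.545 CPM, and was at 0.748 to 1.78 CPM with doxorubicin. PTPRC and CD14 were at most 0.598 CPM in any library, and their groups overlapped. The endothelial markers PECAM1, VWF and KDR summed to 3.68 to 5.23 CPM in control libraries, 1.50 to 2.14 with doxorubicin and 1.02 to 2.04 with both compounds. Most of it was KDR, at 3.56 to 5.07, 1.23 to 1.67 and 0.753 to 1.48 CPM in the 3 groups. VWF went the other way at very low levels, at 0 to 0.0533, 0.268 to 0.508 and 0.124 to 0.511 CPM. PECAM1 was at most 0.249 CPM in any library. The neuronal markers RBFOX3, SYP and TUBB3 summed to 368 to 442, 475 to 504 and 561 to 624 CPM in the same order, nearly all of it TUBB3, and the epithelial keratins KRT8 and KRT18 to 548 to 639, 1082 to 1128 and 1062 to 1171 CPM. The part of these shifts in the results was not tested. The labels do not say whether replicates were separate cultures, so p-values measure the spread between these libraries. In RNA from whole cultures, a changed mix of cells and changed RNA per cell cannot be told apart.

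The promoters were searched for CACGTG, the core letters of the E-box, and for the longer TCACGTGA, since factors of the MiT/TFE family are known to bind such letters in promoters of lysosomal genes. RefSeq promoter windows (GRCh38.p14, 250 bases before to 50 bases after the gene start) were matched by symbol for 29 of 39 members, in 45 windows. CACGTG was present in 9 of 45 windows (20.0%), against 7.26% of all 35116 windows and 9.09% of 15289 windows of genes tested here. TCACGTGA was in 5 windows (11.1%), against 0.980% of all and 1.68% of those of tested genes. In 74 windows of the other lysosome genes, listed separately from the members, the shares were 24.3% for CACGTG and 13.5% for TCACGTGA. Some genes have several windows. Counted by gene, CACGTG was in 31.0% of 29 members, 32.7% of 52 other lysosome genes and 12.4% of 10389 genes tested. For TCACGTGA the shares by gene were 17.2%, 17.3% and 2.29%, so members and other lysosome genes were close. Both strings read the same on either strand, and the longer contains the shorter. The windows of GAA, MCOLN1, GALNS and LAMP1, which rose and hold several matches, are shown beside those of GUSB and NPC1, which fell, each 5′ to 3′ in the direction of the gene with CACGTG in capitals.
GAA: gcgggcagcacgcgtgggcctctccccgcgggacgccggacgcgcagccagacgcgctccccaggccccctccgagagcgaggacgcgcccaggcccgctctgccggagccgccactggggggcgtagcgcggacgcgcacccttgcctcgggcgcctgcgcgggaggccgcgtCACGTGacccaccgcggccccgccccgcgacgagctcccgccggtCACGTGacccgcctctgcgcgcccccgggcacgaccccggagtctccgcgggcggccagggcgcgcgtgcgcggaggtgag
MCOLN1: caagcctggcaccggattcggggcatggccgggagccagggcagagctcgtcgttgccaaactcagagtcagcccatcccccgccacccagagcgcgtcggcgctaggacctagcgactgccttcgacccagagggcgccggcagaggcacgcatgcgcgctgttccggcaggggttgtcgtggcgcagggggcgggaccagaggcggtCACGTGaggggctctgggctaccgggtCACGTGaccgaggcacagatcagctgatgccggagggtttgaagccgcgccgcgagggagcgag
GALNS: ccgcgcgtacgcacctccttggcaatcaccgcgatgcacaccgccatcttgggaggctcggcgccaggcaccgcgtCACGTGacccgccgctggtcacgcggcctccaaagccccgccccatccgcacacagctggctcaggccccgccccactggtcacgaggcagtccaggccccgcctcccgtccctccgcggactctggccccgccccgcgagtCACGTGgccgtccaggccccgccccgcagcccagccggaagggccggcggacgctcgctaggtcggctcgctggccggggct
LAMP1: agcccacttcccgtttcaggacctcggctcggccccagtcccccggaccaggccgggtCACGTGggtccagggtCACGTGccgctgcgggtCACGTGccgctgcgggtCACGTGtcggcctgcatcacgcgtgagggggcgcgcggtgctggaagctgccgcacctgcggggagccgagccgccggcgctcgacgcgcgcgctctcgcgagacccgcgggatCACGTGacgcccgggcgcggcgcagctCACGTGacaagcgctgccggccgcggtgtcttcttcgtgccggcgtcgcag
GUSB: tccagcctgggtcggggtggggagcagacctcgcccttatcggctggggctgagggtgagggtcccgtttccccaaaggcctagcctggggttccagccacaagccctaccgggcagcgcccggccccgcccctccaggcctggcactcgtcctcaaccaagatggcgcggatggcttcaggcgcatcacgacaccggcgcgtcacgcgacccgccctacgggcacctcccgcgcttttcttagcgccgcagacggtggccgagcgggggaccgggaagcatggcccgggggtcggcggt
NPC1: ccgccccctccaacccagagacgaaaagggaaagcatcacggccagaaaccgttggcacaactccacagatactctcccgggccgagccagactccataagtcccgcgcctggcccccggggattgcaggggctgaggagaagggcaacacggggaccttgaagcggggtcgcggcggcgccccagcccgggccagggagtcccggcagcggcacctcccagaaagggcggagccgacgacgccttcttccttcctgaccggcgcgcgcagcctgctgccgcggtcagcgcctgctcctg

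These windows lie at chr17:80101331-80101630 on the plus strand (GAA), chr19:7522374-7522673 on the plus strand (MCOLN1), chr16:88856898-88857197 on the minus strand (GALNS), chr13:113296989-113297288 on the plus strand (LAMP1), chr7:65982164-65982463 on the minus strand (GUSB) and chr18:23586457-23586756 on the minus strand (NPC1). GAA holds TCACGTGA 2 times, with first bases at -77 and -32 from the gene start. MCOLN1 holds it at -42 and -15, and GALNS at -175. LAMP1 holds CACGTG 6 times, at positions from -192 to -1, and TCACGTGA 2 times. GUSB and NPC1 hold neither string in this window. The 9 members with CACGTG were GAA, NEU1, GALNS, ARSB, CTSA, CTSD, LAMP1, CD63 and MCOLN1. All 9 rose after doxorubicin, with a median log2 fold change of 0.70 and a range of 0.33 to 1.51. Of the 20 members whose windows lack it, 15 rose, 3 fell and 2 did not pass, with a median of 0.57 and a range of -1.16 to 1.83. Those that rose without it included IDUA, FUCA1, TPP1, GRN and SMPD1, whose windows are not shown. Over all 39 members, 82.1% rose. Whether the string bears on the response was not tested. A match is a string of letters and not a measured binding site.

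**Figure D1:**
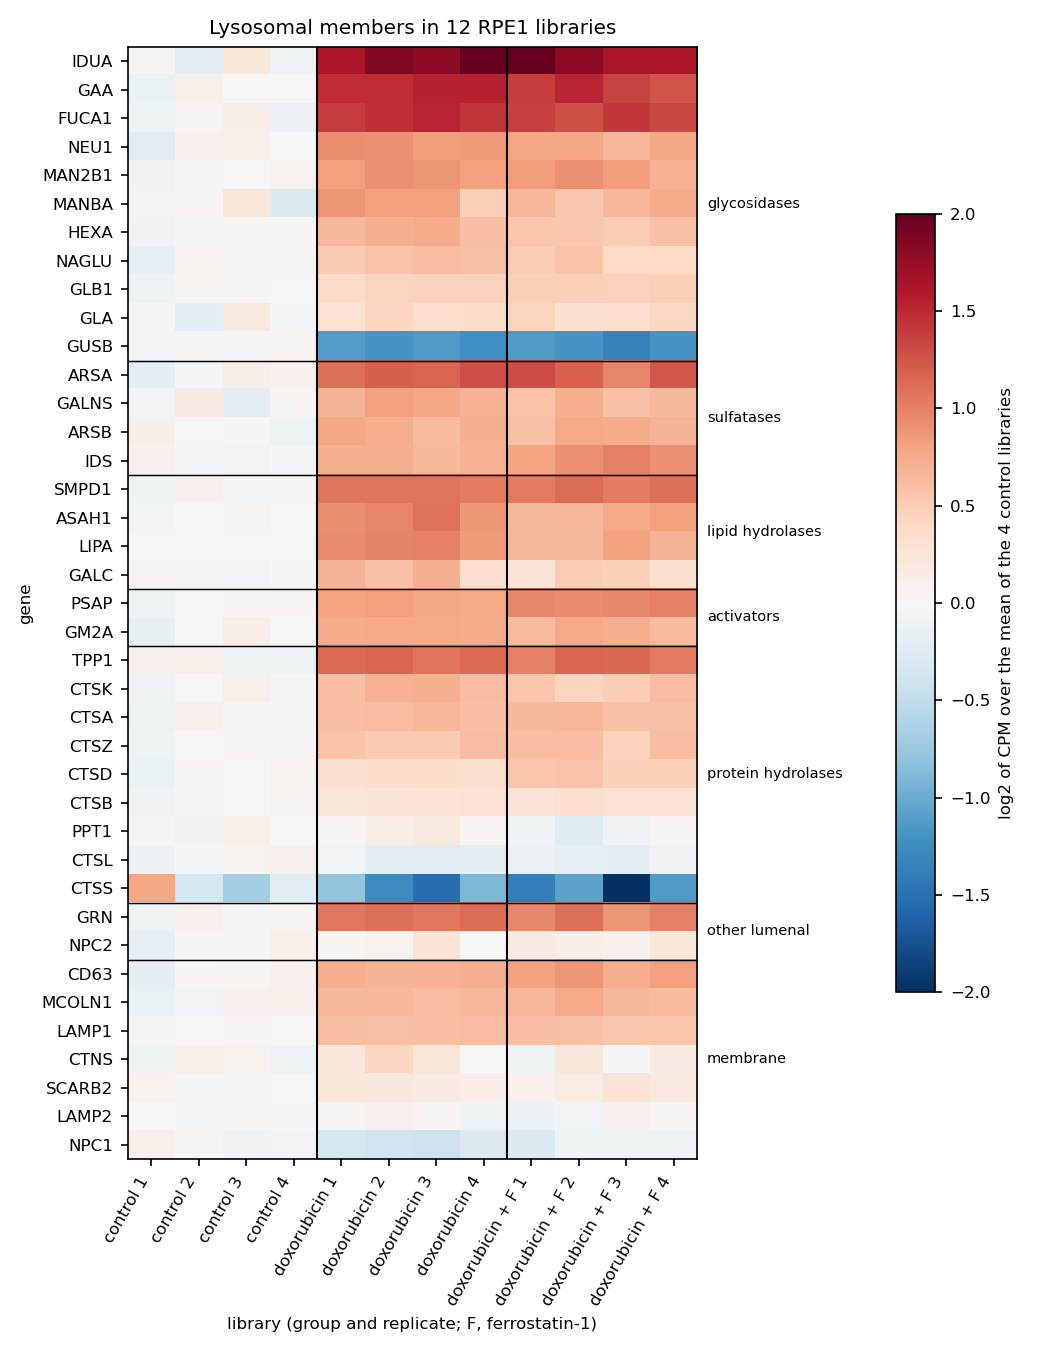
Level of each of the 39 members (rows, grouped by role) in each of the 12 libraries (columns, 4 per group), as log2 of its CPM over the mean of the 4 control libraries; red is above and blue below that mean, and the colour scale stops at -2 and 2. Most rows are red in all 8 treated libraries, while GUSB, CTSS, CTSL and NPC1 are blue in doxorubicin libraries.

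The comparison of doxorubicin with control asked what 72 h of the drug changed. Among the glycosidases, which cut sugar chains, 10 of 11 rose and GUSB fell. IDUA, alpha-L-iduronidase, which degrades heparan and dermatan sulfate, rose the most of all members (ENSG00000127415, chromosome 4 from 986997 to 1004506, GRCh38, GENCODE 29). Its level was 6.11, 5.07, 6.83 and 5.56 CPM in the control libraries and 18.3, 21.2, 20.4 and 24.1 in the doxorubicin libraries (log2 fold change 1.83 ± 0.11 SE, adjusted p = 2e-11). GAA, the alpha-glucosidase that degrades glycogen and is deficient in Pompe disease (ENSG00000171298, chromosome 17 from 80101556 to 80119879), was at 27.8, 32.5, 30.6 and 30.5 CPM in control and 84.4, 84.5, 88.0 and 87.8 with doxorubicin (1.51 ± 0.062, adjusted p = 3.53e-14). For both genes every doxorubicin library lay above every control library. FUCA1, alpha-L-fucosidase, was at 18.2, 20.3, 21.2 and 18.0 CPM and then 51.0, 53.5, 55.6 and 52.2 (1.45 ± 0.062, adjusted p = 7.08e-14), also without overlap.

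GLB1, the beta-galactosidase of the senescence stain, rose by less (ENSG00000170266, chromosome 3 from 32996608 to 33097230). Control libraries had 68.0, 75.9, 74.5 and 72.7 CPM and doxorubicin libraries 94.3, 98.9, 100.1 and 99.7 (log2 fold change 0.43 ± 0.046 SE, or 1.35-fold, adjusted p = 7.13e-08). The groups did not overlap, but 8 of the other 10 glycosidase genes had a larger rise. Those were IDUA, GAA, FUCA1, NEU1, MAN2B1, MANBA, HEXA and NAGLU. NEU1, the sialidase that works in a complex with GLB1, went from 48.7 ± 4.81 to 89.7 ± 3.11 CPM. The alpha- and beta-mannosidases MAN2B1 and MANBA went from 51.9 ± 2.11 to 94.2 ± 2.93 and from 21.4 ± 3.07 to 36.2 ± 4.35 CPM. HEXA, the alpha subunit of beta-hexosaminidase lost in Tay-Sachs disease, rose from 92.7 ± 3.50 to 148 ± 6.30 CPM, and NAGLU, of heparan sulfate breakdown, from 63.2 ± 4.55 to 94.5 ± 2.49. GLA, the alpha-galactosidase lost in Fabry disease, had the smallest rise among the glycosidases, from 20.9 ± 2.16 to 26.7 ± 1.17 CPM (0.35 ± 0.072, adjusted p = 0.000232).

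GUSB, beta-glucuronidase, moved against the other glycosidases (ENSG00000169919, chromosome 7 from 65960684 to 65982314). It was at 55.3, 58.1, 56.1 and 58.8 CPM in control libraries and 26.4, 25.3, 26.0 and 24.5 in doxorubicin libraries (log2 fold change -1.16 ± 0.056 SE, adjusted p = 4.96e-13). All doxorubicin libraries lay below all controls, at 0.447 of the control mean. With both compounds it was at 26.0, 25.1, 22.4 and 25.2 CPM, within the range of doxorubicin alone in 3 of 4 libraries and below it in 1. GUSB has near-identical pseudogene copies, to which counting could assign some of its reads. Of 12 rows named GUSBP, 3 were tested, and none was above 1.08 CPM in any group mean. Their tests did not pass in doxorubicin against control (adjusted p = 0.0651 for GUSBP13, 0.674 for GUSBP14 and 0.915 for GUSBP1).

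The 4 sulfatases, which remove sulfate from glycans and lipids, all rose. ARSA, which acts on sulfatide and is deficient in metachromatic leukodystrophy, was at 21.6, 24.5, 27.0 and 26.3 CPM in control libraries and 53.1, 56.8, 55.6 and 60.7 with doxorubicin (1.18 ± 0.077, adjusted p = 4.57e-11). The doxorubicin libraries were all above the controls. GALNS and ARSB, of keratan and dermatan sulfate breakdown, rose from 22.6 ± 2.31 to 37.9 ± 1.85 and from 42.3 ± 2.57 to 69.5 ± 2.73 CPM. IDS, iduronate 2-sulfatase, rose from 157 ± 7.15 to 255 ± 5.30 CPM.

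All 4 lipid hydrolases rose as well, with a median log2 fold change of 0.96. SMPD1, the acid sphingomyelinase that makes ceramide, was at 76.2, 86.2, 80.0 and 82.7 CPM in control libraries and 171, 171, 171 and 165 with doxorubicin (1.06 ± 0.046, adjusted p = 8.2e-14). ASAH1, the acid ceramidase that breaks ceramide down, went from 50.1 ± 1.52 to 98.1 ± 6.52 CPM (0.97 ± 0.056, adjusted p = 7.84e-12). LIPA, the acid lipase that frees cholesterol and fatty acids from lipoprotein lipids, went from 94.8 ± 0.895 to 183 ± 8.77 CPM (0.95 ± 0.048, adjusted p = 8.2e-13). The genes that rose thus included a maker and a remover of ceramide. GALC, galactosylceramidase, was low throughout and went from 7.93 ± 0.320 to 11.9 ± 1.32 CPM.

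The activator proteins, which lift lipids out of membranes for lysosomal hydrolases, also rose. PSAP, the precursor of the saposins, was among the most abundant members. Its level was 1636, 1749, 1801 and 1796 CPM in control libraries and 3003, 3098, 2994 and 2960.0 with doxorubicin (0.79 ± 0.037, adjusted p = 2.91e-13). PSAP alone took 0.186% ± 0.00660 of the counts in control libraries and 0.292% ± 0.00669 with doxorubicin. GM2A, the GM2 ganglioside activator, went from 25.5 ± 2.06 to 43.0 ± 0.179 CPM.

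Of the 9 genes for enzymes that act on proteins, 6 rose, 2 fell and 1 did not pass. TPP1, a peptidase lost in a childhood neuronal ceroid lipofuscinosis, was at 99.2, 101, 87.9 and 87.4 CPM in control libraries and 206, 209.7, 197 and 206 with doxorubicin (1.12 ± 0.055, adjusted p = 5.99e-13). CTSD, the main aspartic protease of the lysosome, was at 1673, 1872, 1837 and 1924 CPM and then 2252, 2333, 2338 and 2290.4 (0.33 ± 0.042, adjusted p = 7.47e-07). CTSB, a cysteine protease, was at 573, 608, 600.2 and 621 CPM and then 711, 719, 729 and 735 (0.27 ± 0.038, adjusted p = 3.33e-06). TPP1 thus more than doubled while the 2 abundant cathepsins rose by 1.26 and 1.20 times, each without overlap between groups. CTSK, a collagen-degrading protease, rose from 65.0 ± 3.55 to 103 ± 3.88 CPM. CTSZ, an exopeptidase, rose from 50.0 ± 2.15 to 73.7 ± 2.29 CPM. CTSA, a carboxypeptidase that also protects GLB1 and NEU1 from breakdown, rose from 178 ± 9.95 to 274 ± 6.11 CPM. For PPT1, which removes palmitate from proteins, the means were 75.4 ± 3.89 and 80.4 ± 3.61 CPM and the test did not pass (adjusted p = 0.182, interval of the log2 difference -0.03 to 0.22).

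The cysteine proteases CTSL and CTSS were lower. CTSL was at 52.2, 55.2, 59.8 and 60.1 CPM in control libraries and 54.7, 49.5, 48.6 and 49.5 with doxorubicin (-0.17 ± 0.058, adjusted p = 0.0159). Its groups overlapped in 1 doxorubicin library, and the call did not survive leaving out control replicate 3 (0.0585) or 4 (0.0578) or doxorubicin replicate 3 (0.053). CTSS, known mainly from antigen-presenting cells, had only 5 to 37 counts per library. Its levels were 1.84, 0.853, 0.669 and 0.927 CPM in control libraries and 0.621, 0.449, 0.375 and 0.574 with doxorubicin (-1.08 ± 0.37, adjusted p = 0.0138). Control replicate 1 was the highest by far, and without it the log2 fold change was -0.69 and was not called (adjusted p = 0.11).

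The remaining lumenal proteins were progranulin and NPC2. GRN, which codes for progranulin, a secreted growth factor that is cleaved to granulins in lysosomes, was at 293, 333, 305 and 325 CPM in control libraries and 652, 672, 651 and 678 with doxorubicin (1.08 ± 0.050, adjusted p = 2.47e-13). It more than doubled, with no overlap. NPC2, which hands cholesterol to NPC1, was at 165, 186, 185 and 198 and 189, 193, 219 and 185 CPM and did not pass (adjusted p = 0.138, interval -0.02 to 0.23).

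Of the 7 membrane proteins, 5 rose, NPC1 fell and LAMP2 did not pass. LAMP1 and LAMP2 are the 2 main glycoproteins that line the lysosomal membrane. LAMP1 was at 382, 391, 393 and 385 CPM in control libraries and 589, 584, 585 and 592 with doxorubicin (0.60 ± 0.036, adjusted p = 1.25e-11). LAMP2 was at 229, 224, 234 and 226 and then 236, 242, 237 and 215 CPM, with a log2 difference of 0.03 (interval -0.08 to 0.13, adjusted p = 0.636). LAMP1 thus separated the groups and LAMP2 did not, and with library totals alone LAMP2 was called lower (-0.11, adjusted p = 0.0484). CD63, a tetraspanin of late endosomes and exosomes, rose from 539 ± 46.5 to 876 ± 13.1 CPM, and MCOLN1, a calcium channel of the lysosome, from 24.6 ± 1.88 to 38.6 ± 0.559. SCARB2, the carrier of glucocerebrosidase, rose from 260.4 ± 8.23 to 295 ± 8.29 CPM (adjusted p = 0.0014). CTNS, the cystine exporter, went from 15.1 ± 1.07 to 17.7 ± 2.08 CPM (adjusted p = 0.0364). With library totals alone neither SCARB2 nor CTNS was called (adjusted p = 0.446 and 0.407), and CTNS was not called either when control replicates 1 and 4 and doxorubicin replicates 1, 2 and 3 were left out in turn (adjusted p = 0.0782, 0.0934, 0.0536, 0.158 and 0.0641).

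NPC1, the membrane protein that exports cholesterol from lysosomes, fell after doxorubicin (ENSG00000141458, chromosome 18 from 23506184 to 23586898). It was at 112, 106, 100.1 and 101 CPM in control libraries and 82.0, 79.1, 78.4 and 86.1 with doxorubicin (-0.36 ± 0.055, adjusted p = 8.22e-06). Every doxorubicin library lay below every control. LIPA, which frees cholesterol upstream of NPC1, had risen, and NPC2 did not pass.

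**Figure D2:**
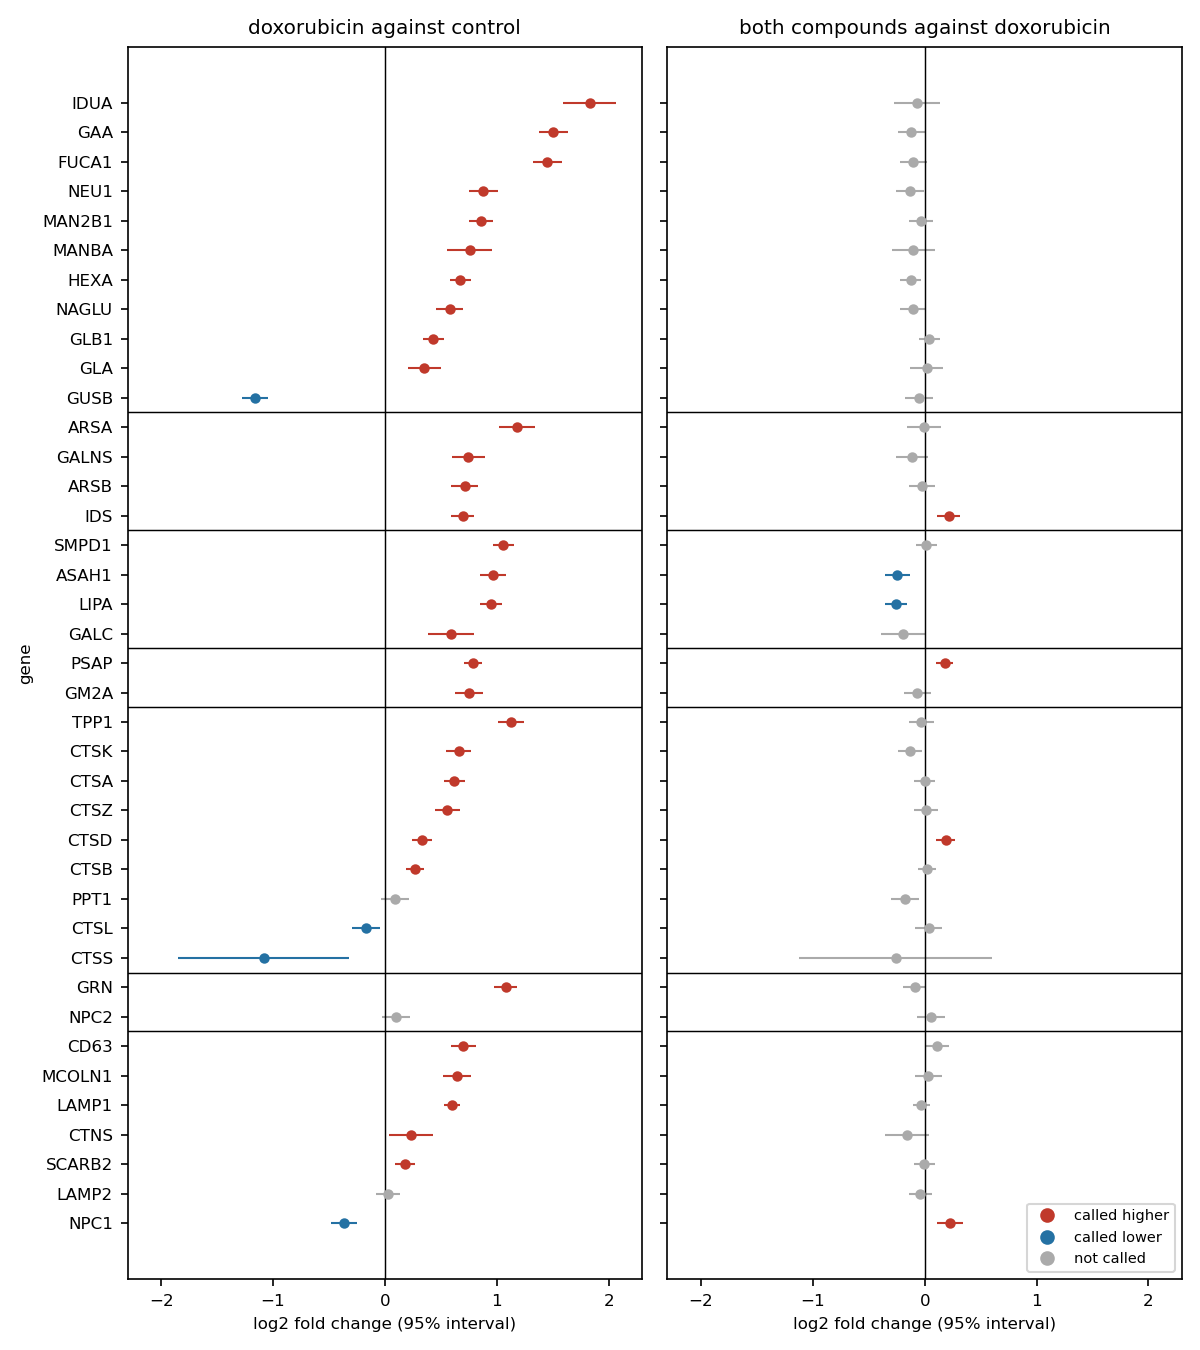
Log2 fold change of each member with its 95% interval from the edgeR fit, for doxorubicin against control (left) and both compounds against doxorubicin (right), 4 libraries per group; red points were called higher, blue lower and grey not called. On the left most points lie between 0 and 2, with GUSB, CTSL, CTSS and NPC1 below 0, and on the right only IDS, PSAP, CTSD, NPC1, ASAH1 and LIPA are coloured.

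In all, 31 members lay higher in every doxorubicin library than in every control library, 3 lay lower and 5 overlapped, where 30.1% of all genes tested lay higher and 30.3% lower. At least a doubling was called for 7 members (IDUA, GAA, FUCA1, ARSA, TPP1, GRN and SMPD1) and at least a halving for GUSB and CTSS, against 5.17% and 8.81% of all genes. The other genes of the lysosome were read from a list of 67 that are no members, of which 64 were tested. Of these, 48 rose, 6 fell and 10 did not pass, with a median of 0.52. By part, 24 of 29 other hydrolases, 8 of 10 genes of enzyme targeting and 16 of 25 other membrane proteins rose. MAN2B2, an alpha-mannosidase, rose from 67.1 ± 1.28 to 187 ± 7.20 CPM. PLA2G15, a lysosomal phospholipase, rose from 58.2 ± 1.36 to 122 ± 4.18 CPM and OSTM1, a partner of the chloride transporter CLCN7, from 54.0 ± 1.50 to 111 ± 6.43. GGH, gamma-glutamyl hydrolase, which cleaves folate polyglutamates, fell from 67.5 ± 1.28 to 26.7 ± 1.58 CPM. CTSV, a close relative of CTSL, fell from 2.79 ± 0.366 to 0.473 ± 0.0743 CPM.

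Libraries with both compounds were then set against those with doxorubicin alone, to see what ferrostatin-1 altered. Of 39 members, 4 rose (10.3%) and 2 fell (5.13%), against 2.36% and 3.28% of all genes tested. PSAP and CTSD, the most abundant members, IDS and NPC1 were higher with ferrostatin-1. LIPA and ASAH1, both hydrolases of lipids, were lower.

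PSAP was at 3003, 3098, 2994 and 2960.0 CPM with doxorubicin and 3386, 3362, 3384 and 3507 with both compounds (0.18 ± 0.037, adjusted p = 0.00443). CTSD was at 2252, 2333, 2338 and 2290.4 and 2684, 2703, 2554 and 2544 CPM (0.19 ± 0.042, adjusted p = 0.00895). IDS was at 257, 259, 247 and 256 and 272, 295, 316 and 297 CPM (0.21 ± 0.048, adjusted p = 0.00832). For these 3 genes every library with both compounds lay above every doxorubicin library, and doxorubicin had already raised them over control. The summed share of the members without PSAP and CTSD was 0.600% ± 0.00457 with doxorubicin and 0.595% ± 0.00921 with both compounds, with overlapping groups.

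NPC1 rose with ferrostatin-1 toward its control level, from 82.0, 79.1, 78.4 and 86.1 CPM with doxorubicin to 86.3, 99.1, 97.8 and 97.7 with both compounds (0.23 ± 0.055, adjusted p = 0.0165). The groups touched closely, with the lowest library of both compounds just above the highest of doxorubicin. The call was lost without doxorubicin replicate 2 (0.0686) or 3 (0.0623) or replicate 2 (0.0518) or 4 (0.057) of both compounds.

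LIPA was at 182, 188, 191 and 171 CPM with doxorubicin and 148, 149, 165 and 152 with both compounds (-0.25 ± 0.047, adjusted p = 0.00157). ASAH1 was at 95.2, 99.1, 107 and 91.3 and 78.9, 79.6, 84.4 and 88.3 CPM (-0.24 ± 0.054, adjusted p = 0.0082). In each case the groups did not overlap, and both genes stayed above their control levels of 94.8 ± 0.895 and 50.1 ± 1.52 CPM. An exon of LIPA lies on the strand opposite IFIT2, an interferon-stimulated gene, and the library kit does not mark the strand, so reads there cannot be told apart. IFIT2 was at 5.29, 7.43 and 5.10 CPM in the 3 groups.

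**Figure D3:**
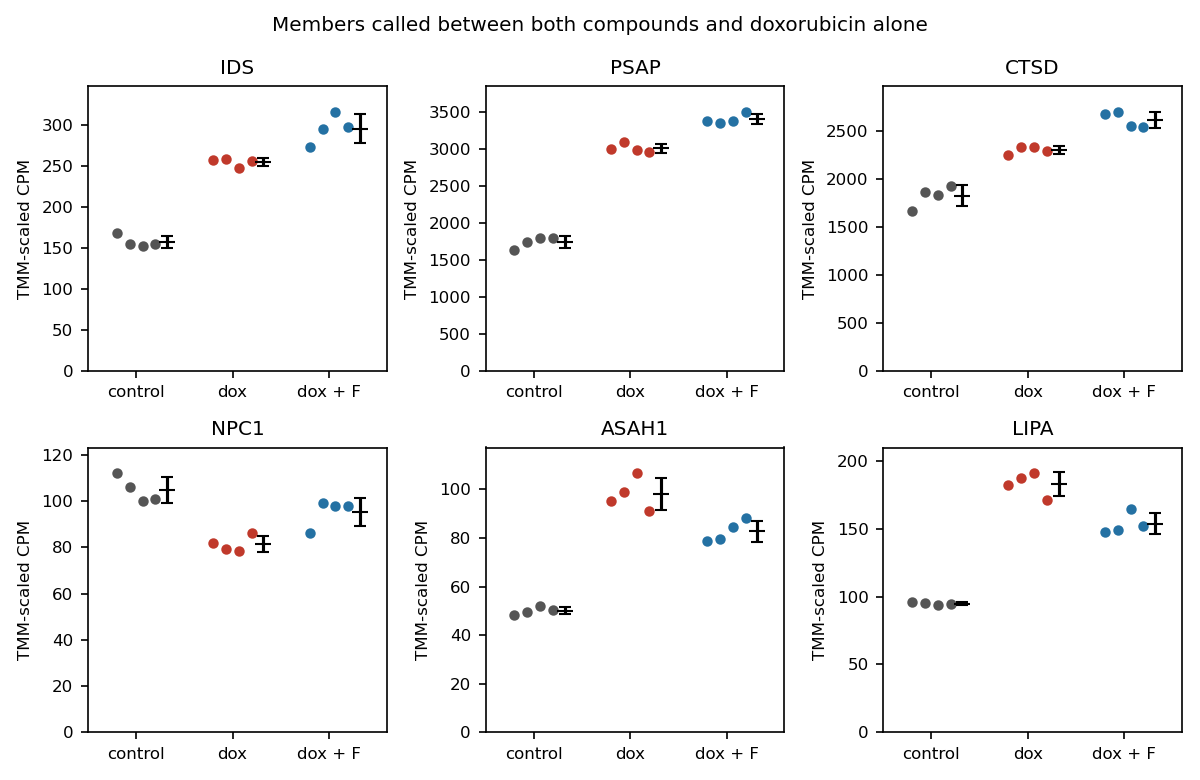
CPM of the 6 members called between both compounds and doxorubicin alone, in each library (points) with the mean and SD of each group of 4 beside them (F, ferrostatin-1; each vertical axis starts at 0). IDS, PSAP, CTSD and NPC1 are higher with both compounds than with doxorubicin alone, and ASAH1 and LIPA are lower.

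The other 33 members did not pass. For 32 of them the 95% interval of the log2 difference lay within -0.5 to 0.5, and the exception was CTSS (interval -1.12 to 0.60). GLB1 was at 94.3, 98.9, 100.1 and 99.7 CPM with doxorubicin and 101, 101, 100.3 and 101 with both compounds, a log2 difference of 0.04 (interval -0.05 to 0.13, adjusted p = 0.757). The intervals were -0.10 to 0.04 for LAMP1, -0.06 to 0.10 for CTSB and -0.19 to 0.02 for GRN. Before adjustment, 12 of all 39 members (30.8%) had p under 0.05, where 16.0% of all genes tested did, and 6 of these 12 passed after it. No overlap between the groups was seen for 9 of the 39 members, 5 with both compounds higher and 4 lower, against 5.22% and 5.97% of all genes. Among the 64 other lysosome genes tested, 1 was called higher (1.56%) and 3 lower (4.69%), where 2.36% and 3.28% of all genes were. The higher gene was CTSC, a dipeptidyl peptidase, at 398 ± 11.0 CPM with doxorubicin and 450.2 ± 23.0 with both compounds. Lower levels were called for 3 genes of this list. Those 3 were TMEM192, a lysosomal membrane protein, from 69.5 ± 3.48 to 58.0 ± 2.34 CPM, SLC36A1, a proton-coupled amino acid transporter, from 24.4 ± 1.89 to 19.4 ± 2.25, and SGSH, a sulfamidase, from 29.6 ± 2.37 to 24.5 ± 1.04. The call on CTSC was lost without doxorubicin replicate 1, 2 or 4 or replicate 4 of both compounds, and only 1 gene of this list was called lower without doxorubicin replicate 2 or replicate 1, 3 or 4 of both compounds.

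The comparison of both compounds with control shares its libraries with the other comparisons. Of 39 members, 32 rose, 4 fell and 3 did not pass, where 33.0% of all genes rose and 34.2% fell (67.2% in all). With library totals in place of TMM scaling, 30 members were higher and 6 lower, and 3237 genes were higher and 6012 lower in place of 4407 and 4563. PSAP was at a log2 fold change of 0.97 ± 0.037 over control with both compounds and 0.79 ± 0.037 with doxorubicin. For LIPA the values were 0.69 ± 0.048 and 0.95 ± 0.048, and for NPC1 -0.14 ± 0.054 and -0.36 ± 0.055. GUSB was at -1.21 ± 0.056 and -1.16 ± 0.056. NPC2 passed only in this comparison (0.16 ± 0.059, adjusted p = 0.0266), with a mean 1.11 times control and overlapping groups. CTNS did not pass here (0.07, adjusted p = 0.515). Among the 4 that fell, CTSL (adjusted p = 0.0476) and NPC1 (0.0303) were near the threshold and were not called with DESeq2 (0.109 and 0.0617). Without control replicate 2 or replicate 1 of both compounds, only 2 members were called lower. Of the other lysosome genes, MAN2B2, PLA2G15 and OSTM1 had the smallest p among those that rose, at 179.7 ± 13.2, 121 ± 5.43 and 100.5 ± 4.35 CPM with both compounds. GGH, CTSV and TPCN2, a channel of the lysosomal membrane, had the smallest p among those that fell, at 28.2 ± 2.66, 0.652 ± 0.258 and 6.26 ± 0.944 CPM.

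Levels of different members were compared per kilobase of annotated exon, from GENCODE 29. The length was the union of all annotated exons, for example 19.3 kb for SCARB2 and 15.4 kb for ASAH1. It can exceed the length of the RNA present, which lowers the place of such genes in the order. For NEU1 it came from an identifier that held 3.25% of its counts. In control libraries the order began with CTSD at 584 ± 34.8 CPM per kb and PSAP at 539 ± 23.6, which differed by less than 2 SD, followed by CD63 at 205 ± 17.7. GRN at 85.3 ± 5.02, CTSB at 80.9 ± 2.73, LAMP1 at 67.6 ± 0.872 and NPC2 at 66.7 ± 5.00 CPM per kb came next, and the neighbours GRN and CTSB, and LAMP1 and NPC2, did not differ beyond their spread. With doxorubicin PSAP, at 930.4 ± 18.2 CPM per kb, stood above CTSD at 737 ± 12.9. The lowest were GALC at 1.16 ± 0.0469 and CTSS at 0.253 ± 0.123 CPM per kb in control libraries. The median over the 39 members was 14.3 CPM per kb in control libraries, 19.3 with doxorubicin and 19.2 with both compounds. GLB1 was at 16.7 ± 0.788 CPM per kb in control and 22.5 ± 0.610 with doxorubicin, near the middle of the order.

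**Figure D4:**
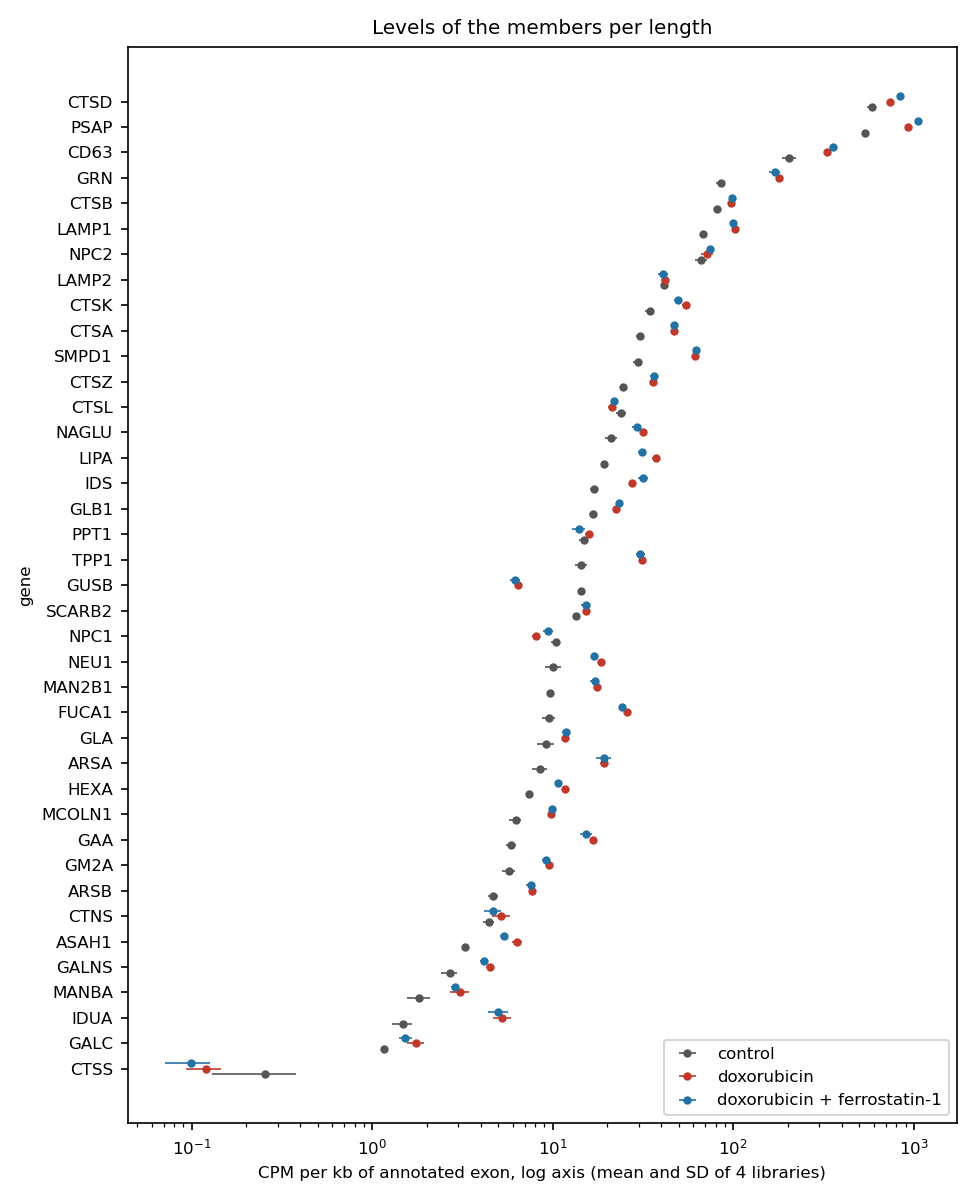
Level of each member per kilobase of annotated exon on a log axis, as mean and SD of the 4 libraries of each group, in the order of the control level. CTSD and PSAP lead and CTSS is last, and GUSB and CTSS are the members furthest to the left of their control level after treatment.

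Some members had several identifiers, or exons that overlap other annotated genes. NEU1 had 4 identifiers in the table, and the identifier that GENCODE 29 places on chromosome 6 held only 3.25% of its counts, while another held 95.5%. CTSB had 2, with 56.8% and 43.2%. Exons of 20 members overlapped another GENCODE 29 gene, on the opposite strand for 16, and for 6 the neighbour reached 10 CPM in a group. PPT1 lies opposite CAP1, at 456 CPM in control libraries and 623 with doxorubicin, and MCOLN1 overlaps PNPLA6 on the same strand, at 119 and 155. The remaining 4 were CTSA beside PLTP, GALNS beside TRAPPC2L, NPC1 beside RMC1 and NPC2 beside ISCA2. From control to doxorubicin libraries, mean CPM went from 18.3 to 41.3 for PLTP and from 25.8 to 30.7 for TRAPPC2L. RMC1 went from 19.0 to 18.9 and ISCA2 from 17.2 to 12.5. How far reads of these neighbours entered the members' counts was not tested.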

How the data were processed

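The authors deposited whole-number counts per gene identifier for 12 libraries. Salmon, DESeq2 and the build GRCh38 are named in the submitters' processing notes without versions or roles, and how estimates became whole numbers is not given in the sources used here. Columns carry a group and a number, so the group of each column is known but not its sample within the group. Counts of identifiers with the same symbol were summed, which left 21599 genes of 22498 identifiers; 1935 identifiers had no symbol, and 618 symbols had several identifiers. Genes passed edgeR's filterByExpr (minimum count 10, minimum total 15), libraries were scaled by TMM, and all 12 libraries entered 1 quasi-likelihood model with a term for each group. P-values were adjusted by Benjamini-Hochberg within each comparison. The model was also run on simulated counts in which few genes were changed, equally up and down, so that run cannot test the choice of scaling.

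Tests ran in edgeR 4.0.16, with DESeq2 1.42.0 and limma 3.58.1 as alternatives, under R 4.3.3; tables and plots used Python 3.11.15, pandas 2.3.3 and matplotlib 3.10.9. Intervals of log2 differences cover 95% and rest on the spread between libraries in the model, while the limit that a count of 0 allows (3 counts) covers counting error only. Exon lengths and positions came from GENCODE 29, matched by identifier for all 39 members, and promoter windows from RefSeq on GRCh38.p14. Alternatives changed the scaling, the filter, the tool, the libraries in the fit and the summing of identifiers.

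The members and lists were chosen with earlier results of these data known. Values in every library are given for members called in doxorubicin against control with an absolute log2 fold change of at least 1 or called lower there, for those called with ferrostatin-1, and for GLB1, LAMP1, LAMP2, CTSD, CTSB, PSAP, GRN and NPC2. Of the other lysosome genes, the 3 with the smallest p in each direction were named in each comparison, or all where fewer passed, except 1 that is not reported here. A planned comparison of protein sequences was not made, and a longer promoter string that was planned is not reported.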

Additional observations from a re-analysis of the deposited data

Results flagged for a closer look

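In 6 of 120 groups of 4 libraries checked (39 members and their summed share, in 3 groups each), 1 library lay far from the other 3. Chance alone gives about 1 in 20. NEU1 was at 77.3 CPM in replicate 3 of both compounds, against 83.0 to 83.4 in the others. SMPD1 was at 164.8 CPM in doxorubicin replicate 4, against 170.6 to 171.0. PSAP was at 3507 CPM in replicate 4 of both compounds, against 3362 to 3386. CTSL was at 54.7 CPM in doxorubicin replicate 1, against 48.6 to 49.5. NPC1 was at 86.3 CPM in replicate 1 of both compounds, against 97.7 to 99.1, and its rise with ferrostatin-1 was 0.27 on the log2 scale without that library (adjusted p = 0.00428). The summed share of the members was 0.790% of the counts in control replicate 1, against 0.836% to 0.841% in the other control libraries, and without it 31 members in place of 32 were called higher after doxorubicin.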

How the results depend on the processing

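The counts of members that rose after doxorubicin were 30 to 32 under every alternative run, and those that fell 3 to 5. With library totals alone as the scale, the median over all genes went from -0.01 to -0.15, 30 members were called higher and 5 lower, and the direction turned for PPT1 (-0.049), LAMP2 (-0.11) and NPC2 (-0.039); over all genes 3250 were higher and 5824 lower, in place of 4453 and 4503. For both compounds against control, 2 members in place of 4 were lower with DESeq2 size factors in edgeR, with no filter on low counts, with DESeq2, with only the 2 groups compared and with the replicate number as a block, while library totals alone gave 30 members higher and 6 lower, and 12 other lysosome genes lower in place of 4; the cause was not tested. With 1 library left out, the members called with ferrostatin-1 were 3 to 4 higher and 2 to 3 lower, those lower with both compounds against control 2 to 4, the other lysosome genes called with ferrostatin-1 0 to 1 higher and 1 to 4 lower, and all genes called higher with ferrostatin-1 206 to 411. The fewest of these, 206 against 315 with all libraries, came without doxorubicin replicate 2. On TMM-scaled library sizes the summed share was 0.774%, 1.15% and 1.22% in the 3 groups. Residuals of libraries with the same column number correlated at -0.104 to 0.0976, and those with different numbers at -0.102 to 0.142, so the numbers were not taken as pairs. The replicate block left 32 and 4 members called after doxorubicin and 4 and 2 with ferrostatin-1, where it called 262 genes higher and 372 lower in place of 315 and 438. Depth limits CTSS, whose interval is the widest among the members.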
